A study of Drosophila melanogaster with 4 samples.

Results

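The data describe 1023 regions enriched for dimethylated lysine 36 of histone H3 (H3K36me2) on 2L, the left arm of the second chromosome of Drosophila melanogaster. They are all the rows of the authors' replicate-set list that lie on 2L and are named as enriched, out of 6411 enriched regions in the whole list. Each was matched to the lists of the individual ChIP samples, which held 1004 regions on 2L in replicate 1 and 1003 in replicate 2, whenever at least 1 bp overlapped. The samples are 2 ChIP samples made with an H3K36me2 antibody and 2 input DNA samples, all from head nuclei of mixed adult flies of the wild-type Oregon-R-modENCODE strain, with no treatment or transgene named in the labels. The inputs enter only through the authors' lists. The labels do not say if the replicates are separate collections of flies, and their spread may be technical.

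H3K36me2 is placed on nucleosomes of transcribed genes. In flies the methyltransferases Mes-4 and Ash1 are known for dimethylating this residue, while Set2 carries out trimethylation. Ash1 belongs to the Trithorax group, whose members oppose Polycomb silencing. A head contains neurons, glia, photoreceptors, muscle and fat body, and a list from whole heads does not tell which of them carry the mark. Positions below are those of FlyBase release 5 and count from the telomeric end of the arm, which has 23.0 Mb in that release. The gene table used here describes release 6, so no region is assigned to a gene.

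Enriched regions took up a minority of the arm. Regions covered 5.19 Mb of 2L in replicate 1 and 5.17 Mb in replicate 2, a covered share of 22.5% and 22.5%, with a mean of 22.5% ± 0.060 (SD, n = 2). The replicate-set list was more generous, with 5.70 Mb or 24.8% of the arm. The first region of that list began 7.31 kb from the telomeric end (7308 to 17327, 10.0 kb, score 1.43), and the same region opened both replicate lists with scores of 1.50 and 1.42. The last region, 22968540 to 22971898, ended 39.6 kb before the centromeric end of the sequence and was also the last in both replicates. No list named a depleted region on 2L.

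Most regions were a few kilobases long, and a small number of long ones carried much of the covered length. The median length was 3734.5 bp in replicate 1, 3706 bp in replicate 2 and 4034 bp in the replicate-set list, in which the middle 50% lay between 2292 and 7317 bp. Each replicate had 108 regions that reached 10 kb, 10.8% of its regions, and these held 30.7% of the covered length in replicate 1 and 30.4% in replicate 2. In the replicate-set list they numbered 137 and held 36.3%. At the other end, 171 regions of replicate 1, 175 of replicate 2 and 193 of the replicate-set list were under 2 kb, with 5.47%, 5.67% and 5.37% of the covered length. The shortest region measured 1309 bp in replicate 1, 1308 bp in replicate 2 and 1001 bp in the replicate-set list.

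Longer regions had higher scores. The score is the authors' own value for each region and has no stated scale. In the replicate-set list its median was 0.306 in the 193 regions under 2 kb and 0.709 in the 420 regions of 2 to 5 kb. It was 1.13 in the 273 regions of 5 to 10 kb, 1.45 in the 120 regions of 10 to 20 kb and 1.62 in the 17 regions of 20 kb or longer. Both replicates had the same order of classes, with 0.442 and 0.429 under 2 kb and 1.86 and 1.82 at 20 kb or longer. Spearman's rho across regions was 0.825 in replicate 1 (n = 1004) and 0.813 in replicate 2 (n = 1003). Among the 2L regions in the higher-scoring 50% of each whole list its mean was lower, at 0.448. This is a description, since length and score come from the same reads and regions are not replicates.

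**Figure D1:**
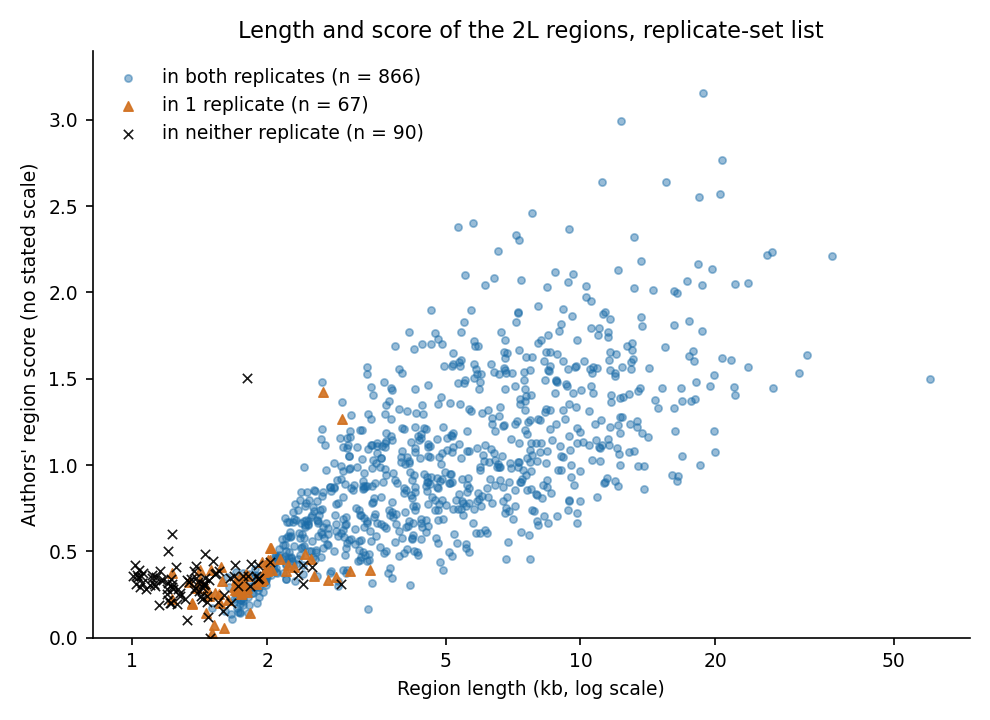
Length (kb, log scale) against the authors' score for each of the 1023 regions of 2L in the replicate-set list. Blue circles are the 866 regions overlapped in both replicates, orange triangles the 27 and 40 overlapped in replicate 1 or replicate 2 alone, and black crosses the 90 overlapped in neither, of which 84 lie below 2 kb.

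At the top of the list length and score were related as well, but did not pick out the same regions. The 10 longest regions ranked between 16th and 180th of 1023 by score, so they were all high-scoring without being among the 10 highest. Of the 100 longest, 37 were among the 100 highest-scoring. The longest region, 4478011 to 4538228, spanned 60.2 kb with a score of 1.50, which ranked 156th by score. It was a single region of 59.8 kb with a score of 1.66 in replicate 1, but 3 regions in replicate 2, the longest of 35.1 kb, with scores from 1.22 to 1.45. The second longest, 5178769 to 5215201, had 36.4 kb and ranked 18th, with a score of 2.21 in the replicate-set list, 2.29 in replicate 1 and 2.16 in replicate 2. Close by lay another 2 of the 10 longest regions, 5121565 to 5145257 (23.7 kb, score 2.06) and 5152493 to 5174671 (22.2 kb, score 2.05). The remaining regions of the 10 longest were spread over the arm. They were 2966927 to 2998925 (32.0 kb), 8425017 to 8451919 (26.9 kb), 11253618 to 11279651 (26.0 kb), 12690979 to 12721746 (30.8 kb), 19731839 to 19755534 (23.7 kb) and 22886326 to 22913083 (26.8 kb). The 10 together covered 309 kb, or 5.41% of the covered length of the arm.

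The highest-scoring regions were shorter and were each a single region in the replicates. All 10 matched a single region in each replicate, against 5 of the 10 longest. The highest score on the arm, 3.16, belonged to 182836 to 201558, a region of 18.7 kb that scored 3.24 in replicate 1 and 3.10 in replicate 2. A second region close by, 224075 to 244724, had the third highest score, 2.77, with 2.84 in replicate 1 and 2.73 in replicate 2. Between them in rank came 4198102 to 4210429 (12.3 kb), with 2.99 in the replicate-set list, 3.10 in replicate 1 and 2.92 in replicate 2. Scores from 2.55 to 2.64 followed at 14318628 to 14334139, 22874282 to 22885435, 16329957 to 16350401 and 6967848 to 6986200. The last 3 of the 10 were below 8 kb. They were 8135422 to 8143236 (7.82 kb, score 2.46), 3525209 to 3530956 (5.75 kb, score 2.40) and 12734787 to 12740123 (5.34 kb, score 2.38), which ranked 222nd, 352nd and 386th by length. The pair 22874282 to 22885435 and 22886326 to 22913083, one among the highest-scoring and the other among the longest, lay 890 bp apart near the centromeric end of the arm.

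The replicates marked the same parts of 2L. The covered length in common was 0.909 of the length covered in either list (the Jaccard index), and 4.93 Mb were covered in both. In replicate 1, 970 of 1004 regions, or 96.6% (Wilson 95% interval 95.3 to 97.6%, counting error only), overlapped a region of replicate 2. In replicate 2, 958 of 1003, or 95.5% (94.0 to 96.6%), overlapped a region of replicate 1. The 34 regions of replicate 1 and 45 of replicate 2 without a partner were short, with medians of 1657 and 1569 bp and none longer than 3005 and 2126 bp.

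Every replicate region on 2L overlapped the replicate-set list, but the reverse did not hold. Of the 1023 regions of that list, 866, or 84.7% (Wilson 95% interval 82.3 to 86.7%, counting error only), were overlapped in both replicates. The interval treats regions as independent, and regions are not replicates. The 866 held 95.5% of the covered length of the list. A further 27 were overlapped only in replicate 1, 40 only in replicate 2 and 90 in neither. Those 90 were short and low-scoring, with medians of 1377 bp for length and 0.324 for score, while the 866 had 4783 bp and 0.940. Ranked by score, 42.2% of the lowest 256 regions (scores up to 0.456) were matched in both, 97.7% of the next 256, 100% of the next 255 and 98.8% of the highest 256. All 137 regions of 10 kb or longer were overlapped in both. The calls found in neither replicate rest on the replicate-set list alone. The longest of them were 6623931 to 6626851 (2.92 kb), 13963578 to 13966097 (2.52 kb), 17322168 to 17324575 (2.41 kb), 11436949 to 11439346 (2.40 kb) and 17707982 to 17710323 (2.34 kb), with scores from 0.313 to 0.420.

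Boundaries were close in the 3 lists. A single region matched a single region in 788 cases for replicate 1 and 817 for replicate 2. The replicate-set boundaries differed from those of replicate 1 by a median of 72 bp at the start and 71 bp at the end, and from those of replicate 2 by 77 and 80 bp. They lay outside or at the replicate boundary in 84.6 to 89.5% of cases, so the replicate-set regions were slightly longer, by a median of 166.5 bp against replicate 1 and 179 bp against replicate 2. Splitting was limited to a minority, with 103 regions in pieces in replicate 1 and 88 in replicate 2, 52 of them in both. The most divided was the 30.8 kb region at 12690979, which was 3 regions in replicate 1 and 4 in replicate 2 with scores from 0.477 to 2.09. Regions at 19731839 (23.7 kb) and 19519749 (20.0 kb) were 3 regions in each replicate. Those at 13165517 (19.8 kb) and 19953304 (19.4 kb) were 2 in replicate 1 and 3 in replicate 2.

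Scores were also close in the replicates. Across the 725 regions matched one-to-one in both lists, Pearson's r was 0.977 and Spearman's rho 0.968, both across regions. The median absolute difference was 0.066, and 93.1% of the regions differed by 0.2 or less. The largest difference, 0.420, was at 2488753 to 2490731, a region of 1.98 kb with a score of 0.627 in replicate 1 and 0.207 in replicate 2. The next was 12124607 to 12129962, with 1.84 in replicate 1 and 1.44 in replicate 2. In the other direction, 9758845 to 9761063 scored 0.507 and 0.899, 824080 to 826305 scored 0.452 and 0.820, and 7470627 to 7472865 scored 0.493 and 0.846. Apart from the region at 12124607, which had 5.36 kb, these regions measured 1.98 to 2.24 kb. The replicate-set score was below both replicate scores in 444 of the 725 regions, between them in 281 and above both in 0; it is therefore not treated as their average.

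**Figure D2:**
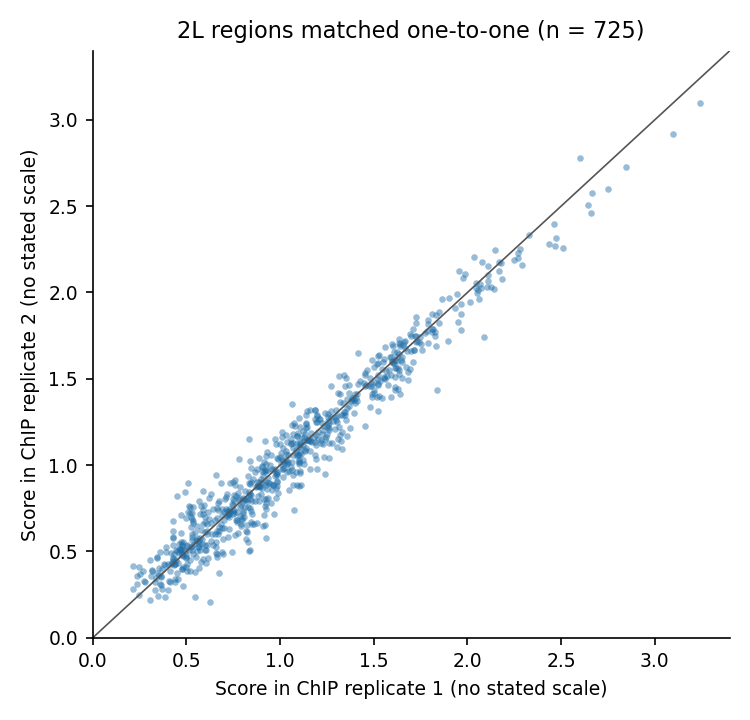
Authors' scores of the 725 regions of 2L matched one-to-one, replicate 1 on the horizontal and replicate 2 on the vertical axis, with the line of equal scores. Points follow the line over the whole range, and the largest difference is 0.420.

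Regions on 2L were grouped. The median gap from the end of a region to the start of the next was 3.08 kb in replicate 1, 3.00 kb in replicate 2 and 2.57 kb in the replicate-set list. The mean gap was far larger, at 17.7, 17.8 and 16.9 kb. In the replicate-set list 610 of 1022 gaps were under 5 kb and held 4.69% of the unmarked length between regions, while 44 gaps of 100 kb or longer held 39.3% of it. The replicates gave 585 and 596 gaps under 5 kb and 45 and 47 gaps of 100 kb or longer, with 41.4% and 42.7% of the gap length. Gaps under 1 kb numbered 327 in the replicate-set list. Replicate 1 covered 2 of them entirely and replicate 2 covered 1, while the other 324 were entirely covered in neither.

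**Figure D3:**
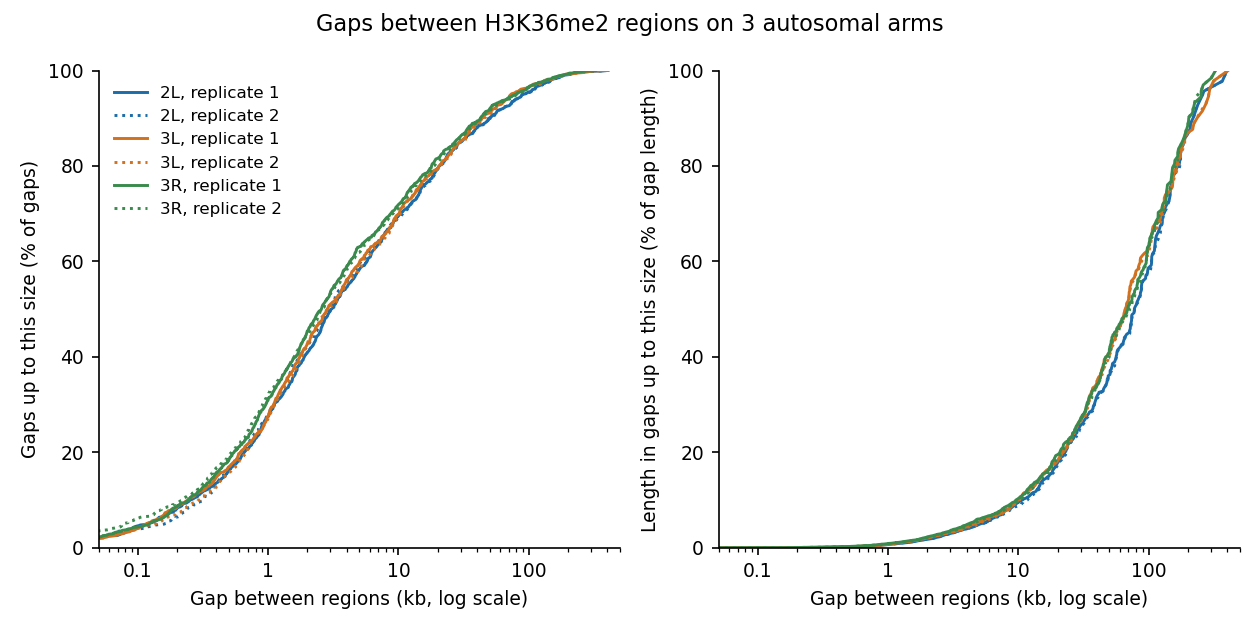
Gaps between neighbouring regions on 2L (blue), 3L (orange) and 3R (green), with replicate 1 as solid and replicate 2 as dotted lines. The left panel gives the cumulative share of gaps and the right panel the cumulative share of gap length, both against gap size (kb, log scale). On 2L, 58.3% of the gaps in replicate 1 and 59.5% in replicate 2 are under 5 kb, but they add up to 4.92 and 4.98% of the gap length.

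When regions separated by gaps under 5 kb were placed in one domain, the 1023 regions formed 413 domains. The number depends on the gap chosen, with 570 domains at 2 kb and 308 at 10 kb. A single region made up 181 domains, and the other 232 held 842 regions, or 82.3% of all, with 82.4% of the covered length. The replicates gave 419 and 407 domains, of which 196 and 184 were single regions. The median span of a domain with several regions was 18.9 kb, and regions covered 85.3% of the span of such domains. Domains of 5 or more regions numbered 51, and 21 domains spanned 50 kb or more.

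Median score showed no steady trend with the number of regions in a domain, and median length fell steadily only in replicate 2. There it was 4019.5 bp in lone regions and 3986.5 bp in domains of 2. It was 3544 bp in domains of 3 or 4 and 3440 bp in larger ones. In replicate 1 these values were 3983, 3532.5, 3833.5 and 3652 bp. In all 3 lists, regions in domains of 5 or more had a lower median length and score than lone regions. In the replicate-set list, regions in domains of 5 or more had medians of 3664 bp and 0.765 for length and score, those in domains of 3 or 4 had 4263 bp and 0.905, and lone regions had 4147 bp and 0.874. In replicate 1 the median score was 0.929 in domains of 5 or more, 1.01 in domains of 3 or 4 and 0.996 in lone regions. In replicate 2 it was 0.900 in domains of 5 or more, 0.985 in domains of 3 or 4 and 0.984 in lone regions. Neighbouring regions were also hardly alike in score, with a Spearman's rho of 0.041 in replicate 1 and 0.063 in replicate 2 across neighbouring pairs.

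The domains with the longest covered length were of different kinds. The one at 10356367 to 10452206 spanned 95.8 kb, with 17 regions that covered 83.6% of it. In the replicates 15 regions each covered 72.8% and 72.0% of that span. A domain of 20 regions at 10197616 to 10291350 spanned 93.7 kb with region scores of 0.158 to 1.20, and one of 16 regions at 1102792 to 1198626 spanned 95.8 kb. These were chains of many regions. By contrast 4 regions filled 95.1% of the 82.7 kb domain at 4478011 to 4560691, 4 filled 94.6% of the 72.7 kb domain at 5152493 to 5225180, and 4 filled 91.1% of the 61.9 kb domain at 182836 to 244724, which held the highest score of the arm. The domains at 16288226 to 16356814 (7 regions, 68.6 kb) and 13160991 to 13226316 (9 regions, 65.3 kb) lay between these kinds. The 8 domains held 9.56% of the covered length of the arm.

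Between the domains lay long stretches without any region. Stretches of 100 kb or longer with no region in any of the 3 lists numbered 44 and took up 6.79 Mb, or 29.5% of the arm. Their median length was 144 kb, and 8 were 200 kb or longer. The longest were 11526500 to 11792386 (266 kb), 15907184 to 16170028 (263 kb), 16916602 to 17168627 (252 kb), 14606923 to 14845302 (238 kb) and 20102973 to 20335293 (232 kb). They were followed by 12746570 to 12975177 (229 kb), 8715026 to 8924517 (209 kb), 3878669 to 4078960 (200.3 kb), 18184292 to 18382445 (198 kb) and 21837163 to 22020246 (183 kb). Of these 10, 8 lay beyond 10 Mb. With a minimum of 50 kb in place of 100 kb such stretches numbered 101, and with 150 kb they numbered 18. The genes and sequence they hold were not examined.

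With the replicate lists alone, the longest stretches were longer still. The stretch from 15771498 to 16170073 measured 399 kb, and the one from 14606904 to 14973857 measured 367 kb. Each was broken in the replicate-set list by 1 isolated region found in neither replicate. These were 15905622 to 15907183 (1.56 kb, score 0.387) and 14845303 to 14846678 (1.38 kb, score 0.386), the most isolated regions of the arm at 134 and 127 kb from their nearer neighbours. In all, 12 regions of the replicate-set list lay wholly inside such stretches of the replicates. They belong to the 90 found in neither by definition, since these stretches hold no replicate region.

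Some isolated regions were found in both replicates. The next most isolated region, 14599661 to 14606922, lay 105 kb from its nearer neighbour, was 7.26 kb long and scored 1.89, with 1.96 in replicate 1 and 1.88 in replicate 2. Its neighbour at 14491069 to 14494492 stood 98.2 kb from the nearer neighbour, with scores of 0.984 in replicate 1 and 1.04 in replicate 2. The region at 22020314 to 22024460 stood 97.3 kb away, with 1.26 and 1.04. Of the 49 regions at least 20 kb from any other, 41, or 83.7%, were overlapped in both replicates, against 84.7% of all regions of 2L, and their median score was 0.810. Of the 18 regions at least 50 kb from any other, 14 were overlapped in both replicates and 4 in neither.

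The mark was unevenly spread along the arm, and the unevenness was alike in the replicates. Across 46 windows of 500 kb the mean covered share of the replicates ranged from 2.17 to 49.8%, with a median of 20.9%, and the replicates differed by at most 1.76 percentage points in a window. The 10 most covered windows held 34.8% of the covered length and the 10 least covered held 10.4%. The most covered were 8000001 to 8500000 (49.5% in replicate 1 and 50.1% in replicate 2) and the first 500 kb of the arm (49.4 and 49.1%). Next came 10000001 to 10500000 (39.3 and 40.9%) and 5000001 to 5500000 (36.4 and 36.02%). These windows were built differently. The window at 10000001 held 56 regions, the most on the arm, with medians of 2965.5 bp for length and 0.556 for score, whereas the window at 5000001 held 20 regions with medians of 7033.5 bp and 1.14.

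The least covered windows were 14500001 to 15000000 (2.15% in replicate 1 and 2.19% in replicate 2, 3 regions) and 15500001 to 16000000 (7.02 and 7.13%, 12 regions). They were followed by 17500001 to 18000000 (8.49 and 7.58%, 11 regions) and 11500001 to 12000000 (10.2 and 9.96%, 10 regions). The 1.5 Mb from 14500001 to 16000000, which include the first and second of these windows, held 29 regions and had a covered share of 7.99% ± 0.039 (SD, n = 2) and 0.985 Mb in empty stretches. Across windows, the covered share had a Spearman's rho of 0.81 with the number of regions (46 windows). The rho was 0.29 with their median length and 0.25 with their median score. The covered share sums region lengths, so it rises with their number by construction and these values are a description. High and low windows were interspersed, with a Pearson's r of 0.11 between the shares of adjacent windows (45 pairs).

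**Figure D4:**
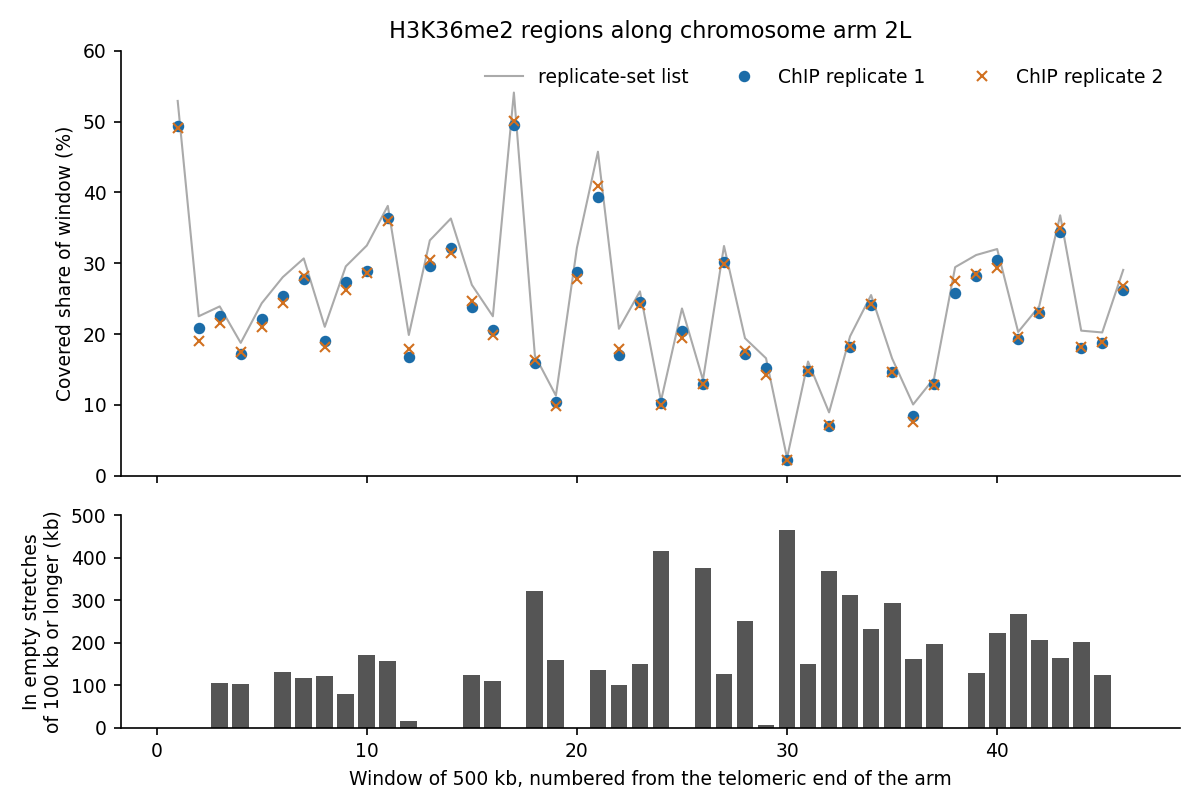
Upper panel, covered share (%) of each of the 46 windows of 500 kb on 2L in ChIP replicate 1 (circles), ChIP replicate 2 (crosses) and the replicate-set list (line). Lower panel, length (kb) of each window in empty stretches of 100 kb or longer. The replicates differ by at most 1.76 percentage points, and the window with the lowest share, 2.17%, is number 30.

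Over longer distances the covered share was lower between 10 and 20 Mb. The first 10 Mb were covered over 26.1% ± 0.21 (SD, n = 2), the next 10 Mb over 18.7% ± 0.011 and the last 3.01 Mb over 23.3% ± 0.21. These limits were chosen after the values were seen, and single windows varied widely within each part, so the difference is a description. The second part had fewer regions, with 502 and 506 in the replicates over the first 10 Mb and 378 and 378 over the next. The regions themselves were of like size, with median lengths of 3656.5 and 3590 bp in the first part and 3810 and 3696.5 bp in the second. Median scores were 0.943 and 0.968 in the first part and 0.934 and 0.896 in the second. Typical spacing was not wider either. The median gap was 3.31 kb in replicate 1 and 3.21 kb in replicate 2 over the first 10 Mb, and 2.88 and 2.62 kb over the next.

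What differed was the length in empty stretches. These took up 17.2% of the first 10 Mb, 41.0% of the next 10 Mb and 32.0% of the last 3.01 Mb. Outside them, the covered share was 31.5% ± 0.26 (SD, n = 2) in the first part, 31.7% ± 0.019 in the second and 34.3% ± 0.31 in the last. The first and second parts thus differed by less than the replicate SD of the first once empty stretches were set aside. The stretches were defined on the same lists, so this divides the covered share into its components and is not separate evidence.

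**Figure D5:**
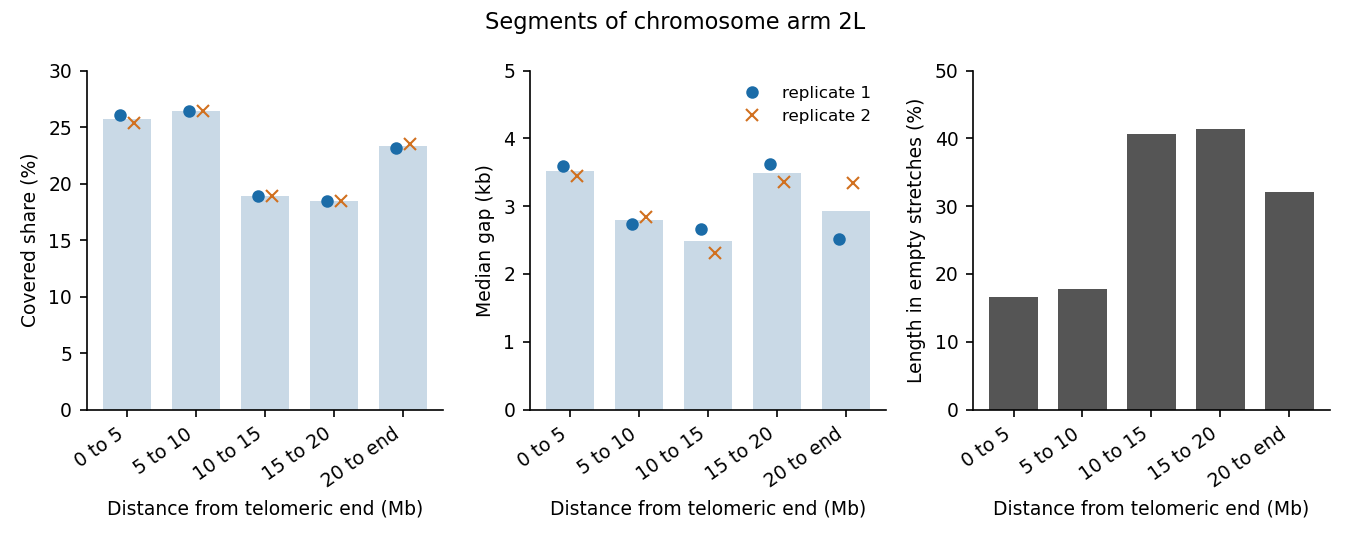
Covered share (%, left) and median gap (kb, middle) in 5 consecutive segments of 2L, with bars for the mean of the ChIP replicates, circles for replicate 1 and crosses for replicate 2. The right panel gives the share of each segment in empty stretches of 100 kb or longer (%), which is 16.6 and 17.8% in the first segments and 40.6 and 41.4% between 10 and 20 Mb, where the covered share is lowest.

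The segments of 5 Mb showed the same order in finer detail. Covered shares were 25.7, 26.4, 18.9, 18.5 and 23.3% from the telomeric to the centromeric end, with replicate SDs of at most 0.47 percentage points. Domains numbered 19.0, 22.6, 15.6, 15.2 and 16.9 per Mb, each with 2.32 to 2.71 regions on average. Near the ends, the first 1 Mb was covered over 34.6% ± 0.73 (SD, n = 2) and the last 1 Mb over 22.7% ± 0.25. The high share at the telomeric side came from the first 500 kb, since the window after it had 20.8% in replicate 1 and 19.1% in replicate 2.

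Against 3L and 3R, the arms of the third chromosome, 2L had a lower covered share and more of its length in empty stretches. Arms of a sample share a library and there are only 2 replicates, so differences are set against the replicate spread, without a test. The covered share of 2L was 0.962 ± 0.0010 (SD, n = 2) times that of 3L and 0.889 ± 0.0064 times that of 3R. Regions were fewer, with 43.6 per Mb on 2L in both replicates, against 46.7 and 45.7 on 3L and 48.9 and 47.7 on 3R. Median lengths on 2L and 3L differed by less than the replicate SD, with 3734.5 and 3706 bp on 2L, 3739 and 3707 bp on 3L and 3800.5 and 3847 bp on 3R. Median scores were slightly lower on 2L, at 0.961 and 0.951, against 0.983 and 0.973 on 3L and 0.984 and 0.974 on 3R.

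Empty stretches took up 29.5% of 2L, against 26.7% of 3L and 24.0% of 3R, and numbered 19.1 per 10 Mb, against 16.3 and 15.4. Their median length was 144 kb on 2L, against 149.5 kb on 3L and 138 kb on 3R, and the longest measured 266 kb on 2L, against 406 kb on 3L and 324 kb on 3R. With a minimum of 150 kb they numbered 18 on 2L (23.0 Mb), 20 on 3L (24.5 Mb) and 18 on 3R (27.9 Mb). The higher number per Mb on 2L than on 3L thus held at 100 kb but not at 150 kb. Outside the stretches of 100 kb or longer, the covered share of 2L was 31.9% ± 0.085 (SD, n = 2), against 31.9% ± 0.12 on 3L and 33.3% ± 0.33 on 3R. Setting aside the empty stretches therefore left a difference between 2L and 3L below the replicate SD, while 2L stayed below 3R in both replicates. In replicate 1 the values were 32.0% on 2L and 33.5% on 3R, and in replicate 2 they were 31.9% on 2L and 33.1% on 3R. Arm ends were not set aside. The replicate-set list had 134 kb without a region before the first on 3L, against 7.31 kb on 2L. After the last region it had 7.12 kb on 3L, against 39.6 kb on 2L. These lengths stayed in the totals and lower the share of 3L more than that of 2L. The small difference between 2L and 3L therefore depends on this rule. The longest domain of the replicate-set list spanned 95.8 kb on 2L, against 170 kb on 3L and 156 kb on 3R, a difference that rests on 1 domain of 100 kb or more on 3L and 2 on 3R. Domains of 50 kb or more numbered 16 and 19 in the replicates on 2L, against 21 and 18 on 3L and 23 and 22 on 3R. Both other arms are longer than 2L, so these counts alone do not show that such domains were rarer on 2L. The longest single region of the replicate-set list was longer on 2L, at 60.2 kb, against 40.7 kb on 3L and 43.8 kb on 3R, but in replicate 2 it was 36.1 kb on 2L, against 40.3 kb on 3L and 43.4 kb on 3R. Replicate agreement was alike on the arms, with Jaccard indices of 0.909 on 2L, 0.915 on 3L and 0.912 on 3R.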

How the data were processed

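ChIP-seq of H3K36me2 in 2 ChIP samples, each with an input sample per the labels, was deposited as 3 lists of regions. The submitters' processing notes name Bowtie 0.12.7, a read aligner, and per the file headers coordinates are FlyBase release 5. The sources used here do not name the region caller or its threshold, or say how the replicate set was made. The score of each region is the authors' deposited value with no stated scale. It was used to rank and describe regions within a list, and beside regions matched between lists. Depth is unknown, since the lists give no counts, so no interval for read sampling is possible.

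Regions on 2L named as enriched were taken as the members. They, the named regions and the rules were chosen with earlier results of these data known. No regions overlap within a list, so covered length is the sum of region lengths, and the covered share divides it by the length in the file headers. Domains join gaps under 5 kb. Empty stretches have 100 kb or more and no region in any list, ends of the arm left out. Named regions follow a rule: the 10 longest, the 10 highest-scoring, the 8 domains with most covered length, the 10 longest empty stretches, the 4 most and 4 least covered windows, the first and last region, and the 5 longest in neither replicate, most divided, most isolated and most different in score. The replicate-only stretches, the tract of 1.5 Mb, the 3 parts of the arm, the regions next to empty stretches and the high-scoring regions not in both replicates were chosen after their values were seen. Interval computations were tested on 20 simulated lists of 300 regions and the Jaccard index was checked against bedtools 2.31.1. Python 3.11.15, NumPy 2.4.6, pandas 2.3.3, SciPy 1.17.1 and Matplotlib 3.10.9 were used. No sequence is printed, since no release 5 genome was used here.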

Additional observations from a re-analysis of the deposited data

How the results depend on the processing

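In all, 32 alternatives were run for 8 results. In 20 the value stayed within the replicate SD of a mean, the Wilson interval of a share of regions or 1.5 times a count. In 12 it moved, any change of the Jaccard index included. A reversal was not scored apart from a move. The 8 that leave out a replicate lie within 1 SD of the mean by construction. They gave covered shares of 22.46 and 22.54%, ratios of 0.962 and 0.963 to 3L and of 0.884 and 0.893 to 3R, and rho values of 0.813 and 0.825 for length and score. No paired analysis was possible because both ChIP samples belong to the same group and the inputs gave no values here.

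Joining regions closer than 1 kb gave a covered share of 23.0%, a rho of 0.701 and a Jaccard index of 0.913. The higher-scoring 50% of each list was also kept, with the cut made on the whole list and all arms included. It gave a covered share of 15.6%, ratios of 0.943 to 3L and 0.856 to 3R, a rho of 0.448 and a Jaccard index of 0.863. Fewer regions lower the covered share by construction. Beyond that the cause was not tested. The replicate-set list gave a covered share of 24.8%. Among the 2L regions in the higher-scoring 50% of the whole replicate-set list, 99.4% were overlapped in both replicates. Empty stretches numbered 101 with a minimum of 50 kb and 18 with a minimum of 150 kb. With depth unknown, absence from a list does not show absence of the mark.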

Other observations

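Regions next to an empty stretch of 100 kb or longer had somewhat higher scores than the other regions of 2L. The median score was 1.14 in the 82 such regions of replicate 1, against 0.941 in the others, and 1.04 in the 83 of replicate 2, against 0.936. Their lengths were close to those of the others, with medians of 3816.5 and 3714 bp in replicate 1 and 3900 and 3671.5 bp in replicate 2. Within 10 classes of like length they scored a median of 0.083 above their class in replicate 1 and 0.054 in replicate 2, against -0.0075 and -0.0057 for the other regions. The score has no stated scale and regions are not replicates, so no test was made.

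Only 3 regions of 2L at or above the median score were not overlapped in both replicates. The first, 21538383 to 21540187, was 1805 bp long, scored 1.51 and was found in neither replicate. It followed a gap of 149 kb, and the nearest replicate region was 33691 bp away. It was also the only 1 of the 193 regions under 2 kb to reach the median score. The others, 5175704 to 5178362 (score 1.42, replicate 1 only) and 4538374 to 4541303 (score 1.27, replicate 2 only), lay 406 and 145 bp from a longer neighbour, which in each case was 1 of the 10 longest regions of the arm.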
